A study of Mus musculus with 2 samples.

Results

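The 10 genes described here are regulators and a structural marker of the trophectoderm, the outer epithelium of the blastocyst that founds the placenta: Cdx2, Elf5, Gata2, Gata3, Tfap2a, Tfap2c, Tead4, Hand1, Ets2 and Krt8. They were chosen by name for their known roles, out of 21755 protein-coding genes annotated on chromosomes 1 to 19 and X. The rule used no value measured here, but the set was drawn up with earlier results of these data known, so the contrasts with the genome below are descriptions. For each of them, the peaks of Nanog within 100 kb of the transcription start site (TSS) were collected, together with the peaks for which the gene was the nearest protein-coding gene. The data were 1 chromatin immunoprecipitation sequencing (ChIP-seq) library of mouse embryonic stem cells (ESCs) of the line Bruce-4, made with the rabbit monoclonal antibody D1G10 against Nanog, and 1 input library of chromatin that met no antibody. The labels name no genetic change or treatment of the cells, which were grown in medium with fetal bovine serum and leukemia inhibitory factor (LIF). No replicate of either library was used here, so no value below has a replicate error, and no test between samples was possible. The peak list held 8737 distinct intervals with positions only, and it gives no measure of peak height or of sequencing depth. The 8735 peaks outside unplaced scaffolds entered the comparisons. No expression was measured in these libraries, and a binding position does not show whether a gene was on or off.

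In the early embryo, cells on the outside become trophectoderm and cells on the inside become the inner cell mass, from which ESCs are derived. Tead4, acting with its coactivator Yap1, switches on Cdx2 and Gata3 in outside cells, and Cdx2 holds the pluripotency gene Pou5f1 down there. Nanog is a homeodomain protein of the inner cell mass and of ESCs, where it binds DNA at many of the same places as Oct4 and Sox2. Elf5, Ets2, Tfap2c and the Gata factors maintain trophoblast stem cells, and Hand1 drives their differentiation into giant cells.

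Nanog peaks lay within 100 kb of 8 of the 10 genes, against 54.8% of all protein-coding genes. Gata3 and Hand1 were the genes without one. The peaks numbered 18 in all, a mean of 1.8 per gene, where the mean over all protein-coding genes was 1.00. Cdx2, Krt8, Tead4 and Tfap2c each had 1 peak within 5 kb of the TSS, that is 4 of 10 genes, against 6.25% of protein-coding genes. The limit of 5 kb, the counts of at least 3, 4, 5 and 9 peaks used below and the distance classes were chosen after the values were seen, so these counts are given as a description.

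The sequences below are the 200 bp around the centre of the closest peak of 7 of these genes, shown because these are the Nanog-bound places nearest to the start sites. They are the plus strand of mm10 (GRCm38), read 5′ to 3′ from the RefSeq copy of the assembly, and capitals mark every match to 11 motifs that were searched on both strands. Motifs of the pluripotency factors were the Nanog core CCATTA, the Sox motif in the form CCATTGT and in the more T-rich form CCTTTGT, the Oct octamer ATGCAAAT, the Klf motif GCCACACCC, GCCACGCCC, GCCCCACCC or GCCCCGCCC, and the Esrrb motif TCAAGGTCA. To these came the degenerate Oct4-Sox2 composite with at most 2 mismatches, whose full form includes the octamer. Motifs of the families of the regulators were the Tead motif GGAATG, to which the partners of Yap1 bind, the Gata motif written as AGATAA, the Cdx motif of caudal-type homeodomains, CCATAAA, the AP-2 motif GCCNNNGGC and the Ets motif CCGGAAGT.
Cdx2, 2867 bp downstream of the TSS, chr5:147304304-147304503: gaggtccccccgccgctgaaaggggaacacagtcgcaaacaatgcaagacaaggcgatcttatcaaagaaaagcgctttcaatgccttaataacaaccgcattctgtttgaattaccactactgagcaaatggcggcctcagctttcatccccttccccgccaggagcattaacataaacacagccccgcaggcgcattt
Tead4, 4248 bp downstream, chr6:128296476-128296675: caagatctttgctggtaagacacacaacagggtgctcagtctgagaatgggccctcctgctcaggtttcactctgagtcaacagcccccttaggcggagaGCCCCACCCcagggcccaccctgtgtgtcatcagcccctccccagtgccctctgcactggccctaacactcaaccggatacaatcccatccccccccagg
Gata2, 16423 bp downstream, chr6:88210215-88210414: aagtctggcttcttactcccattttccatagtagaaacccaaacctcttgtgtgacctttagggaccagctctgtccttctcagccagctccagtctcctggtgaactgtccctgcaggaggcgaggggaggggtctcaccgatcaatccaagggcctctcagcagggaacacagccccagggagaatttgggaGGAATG
Tfap2a, 18232 bp upstream, chr13:40756509-40756708: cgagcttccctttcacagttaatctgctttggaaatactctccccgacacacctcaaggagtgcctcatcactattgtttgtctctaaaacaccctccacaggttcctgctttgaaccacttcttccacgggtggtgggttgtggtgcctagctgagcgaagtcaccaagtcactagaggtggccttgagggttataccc
Elf5, 63403 bp upstream, chr2:103348186-103348385: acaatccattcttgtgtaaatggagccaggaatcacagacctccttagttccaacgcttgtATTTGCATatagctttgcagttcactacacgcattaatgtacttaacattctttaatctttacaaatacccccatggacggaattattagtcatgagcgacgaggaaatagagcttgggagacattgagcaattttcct
Ets2, 65304 bp downstream, chr16:95767280-95767479: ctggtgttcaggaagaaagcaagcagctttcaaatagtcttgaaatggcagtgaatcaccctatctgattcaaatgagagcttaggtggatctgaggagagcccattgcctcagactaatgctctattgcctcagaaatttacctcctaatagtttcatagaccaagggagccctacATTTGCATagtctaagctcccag
Krt8, 3166 bp upstream, chr15:102007549-102007748: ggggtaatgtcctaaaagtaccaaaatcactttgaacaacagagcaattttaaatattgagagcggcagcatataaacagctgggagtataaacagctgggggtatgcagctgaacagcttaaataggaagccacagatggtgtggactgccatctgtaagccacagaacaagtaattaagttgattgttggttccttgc
Of these 7 windows, Elf5 and Ets2 each held the octamer, read on the minus strand, Tead4 held a Klf match and Gata2 a Tead match at the very edge of the window. The windows of Cdx2, Tfap2a and Krt8 held none of the 11 motifs. A match is a description of the letters and not a site shown to be used, and the absence of a match concerns these letters in this window only.

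**Figure D1:**
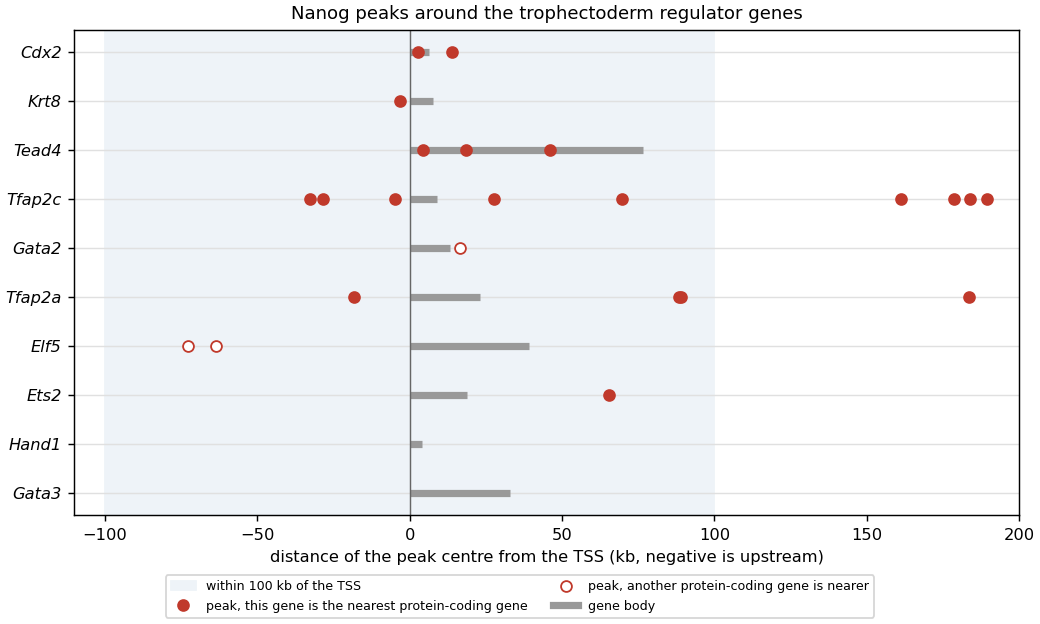
Each row is a gene, the horizontal axis is the distance of a peak centre from its TSS in kb (negative is upstream), and each circle is 1 Nanog peak, filled where the gene is the nearest protein-coding gene and open where another is nearer; grey bars are gene bodies, and peaks beyond 100 kb are drawn only where the gene is the nearest. Tfap2c carries 9 filled circles on both sides of its TSS, the 3 peaks of Tead4 all sit inside the gene, and Hand1 and Gata3 carry none.

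Cdx2 (ENSMUSG00000029646.3, chr5:147300805-147307270, minus strand) encodes the caudal-type homeodomain protein that defines the trophectoderm. It had 2 peaks, and the nearer, at chr5:147304214-147304593, was 380 bp wide and centred 2867 bp downstream of the TSS in an intron of Cdx2 itself. Only 4.17% of protein-coding genes had a peak as close. The window of this peak, printed above, was 50.5% GC and held 10 CpG dinucleotides, the most among the 18 peaks, whose median was 2. The other peak, at chr5:147293157-147293489, was 333 bp wide and lay 13947 bp downstream of the TSS, beyond the end of the gene, with an AP-2 match (GCCTGGGGC) 96 bp from its centre. The gap between the peaks was 10.7 kb, and both were nearer to Cdx2 than to any other protein-coding gene, although the microRNA gene Mir7k was nearer to the outer one, at 10.0 kb. Cdx2 has close neighbours, Urad at 15.2 kb upstream and the pancreatic homeobox gene Pdx1 at 37.3 kb downstream, so only 26.2 kb of the genome is nearest to it.

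Tead4 (ENSMUSG00000030353.15, chr6:128224288-128300823, minus strand), the DNA-binding partner of Yap1 at the end of the Hippo pathway, had 3 peaks. They were centred 4248, 18541 and 46137 bp downstream of the TSS and were 401, 238 and 235 bp wide. All 3 lay in introns of Tead4, and with the proximal peak of Cdx2 they made up the 4 of 18 peaks whose centre was inside the gene they were collected for. The nearest of them, at chr6:128296375-128296775, was 60.5% GC with a Klf match 5 bp from its centre. The middle one held a Tead match, the motif of the protein family that the gene encodes, 14.5 bp from its centre. That motif was also in 10.5% of windows of the same length 1 kb beyond the peak edges. The farthest peak was 69% soft-masked repeat, the highest share among the 18. The processed pseudogene Gm21893 was closer to each of the 3 peaks than the start of Tead4 was.

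Tfap2c (ENSMUSG00000028640.11, chr2:172549593-172558622, plus strand), an AP-2 transcription factor of trophoblast and germ cells, had the most peaks of the 10 genes. Within 100 kb, 3 lay upstream at 32706, 28358 and 4677 bp and 2 downstream at 27756 and 69605 bp. It was the only one of the 10 genes with at least 5 peaks in that range, a count that 1.94% of protein-coding genes reached. A further 4 peaks lay 161247, 178799, 184037 and 189610 bp downstream, before the midpoint to Bmp7, the next protein-coding gene on that side at 390.7 kb, and so counted as nearest to Tfap2c. That made 9 peaks nearest to Tfap2c, a number that 0.0965% of protein-coding genes reached. The last 3 followed each other with gaps of 4.90 and 5.27 kb and formed 1 stretch, by a chaining distance of 12.5 kb. All 9 were intergenic.

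The 9 peaks of Tfap2c differed in width, from 235 to 469 bp, and in sequence. The peak at 32706 bp upstream held the only Sox match (ACAAAGG) among the 18 peaks, and the one 4.05 kb from it held a Gata match. At 69605 bp downstream a Gata match (AGATAA) and the only Nanog core match (TAATGG) of the 18 overlapped by part of their letters, 57.5 and 54.5 bp from the centre. Among the outer peaks, that at 178799 bp was the one with the most motifs, an AP-2 match (GCCCTGGGC), a Klf match (GGGCGGGGC) and a Tead match (CATTCC) in a window of 61.5% GC with 12 CpG.

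Tfap2a (ENSMUSG00000021359.16, chr13:40715302-40738376, minus strand), another AP-2 factor, had 3 peaks within 100 kb. The closest, at chr13:40756487-40756730, was 244 bp wide and lay 18232 bp upstream in intergenic sequence, 1.61 kb from a long noncoding RNA gene, Gm48107. The other 2 were a pair 88500 and 89089 bp downstream, 255 and 289 bp wide with 317 bp between their edges, and the outer of the pair held a Klf match (GCCACACCC) 18 bp from its centre. With a peak 183493 bp downstream, Tfap2a was nearest to 4 peaks. Tfap2c and Tfap2a were the 2 of 10 genes nearest to at least 4 peaks, against 1.47% of protein-coding genes, and Tead4, Tfap2a and Tfap2c were the 3 of 10 with at least 3 peaks within 100 kb, against 11.4%. Both AP-2 genes lie in sparse sequence, and the stretch of genome nearest to them was 249.2 kb for Tfap2a and 233.9 kb for Tfap2c, against a median of 47.1 kb over protein-coding genes.

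Gata2 (ENSMUSG00000015053.14, chr6:88193891-88207032, plus strand), a zinc finger factor of trophoblast and blood progenitors, had 1 peak, at chr6:88210167-88210462, 296 bp wide and 16423 bp downstream of the TSS, past the end of the gene. Dnajb8, a DnaJ cochaperone gene, was nearer to it, at 12.0 kb, so Gata2 was the nearest protein-coding gene of no peak. This assignment depended on which start was taken: with the start of every annotated Gata2 transcript the distance became 5.87 kb and the peak was nearest to Gata2. Gata3 (ENSMUSG00000015619.10, chr2:9857078-9890034, minus strand), a target of Tead4 and partner of Cdx2 in the trophectoderm, had no peak within 100 kb. Its closest peak, at chr2:10142828-10143122 and 295 bp wide, lay 252.9 kb upstream and was 10.6 kb from Itih5, an inter-alpha-trypsin inhibitor heavy chain gene. Of all protein-coding genes, 80.7% had a closer peak or one as close. Gata3 shares its start region with 9230102O04Rik, whose TSS was 0.494 kb away, and with every transcript's start counted it became the nearest gene of 3 peaks, still without one within 100 kb.

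Elf5 (ENSMUSG00000027186.14, chr2:103411688-103450989, plus strand), an Ets-family factor that keeps trophoblast stem cells in their state, had 2 peaks, 63403 and 72854 bp upstream. They were 235 and 330 bp wide and lay in an intron and a noncoding exon of A930006I01Rik, and the closer one, at chr2:103348168-103348402, held the octamer 34.5 bp from its centre in a window of 39.5% GC, the lowest of the 18. The related epithelial factor gene Ehf was nearer to both peaks, at 45.0 and 35.6 kb, so Elf5 was the nearest protein-coding gene of no peak. Ets2 (ENSMUSG00000022895.16, chr16:95702075-95721051, plus strand), an Ets factor downstream of growth factor signalling in trophoblast stem cells, had 1 peak, at chr16:95767145-95767613, 65304 bp downstream. At 469 bp it was, with the Tfap2c peak at 69605 bp, the widest of the 18, lay in an intron of 1600002D24Rik and held the octamer 81.5 bp from its centre. As close a peak was found for 41.5% of protein-coding genes in the case of Elf5 and 42.3% in that of Ets2.

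Hand1 (ENSMUSG00000037335.13, chr11:57828705-57832818, minus strand), the basic helix-loop-helix factor of trophoblast giant cells, had no peak within 100 kb. Its closest, at chr11:57719617-57720039 and 423 bp wide, lay just outside, 113.0 kb downstream in an intron of Galnt10, with Galnt10 as the nearest protein-coding gene. Farther out, peaks followed at 124.4, 129.8 and 137.9 kb upstream, where Larp1 was nearest. The peaks just inside the limit were the Tfap2a pair at 88.5 and 89.1 kb, so no peak lay between 89.1 and 113.0 kb of any of the 10 genes. Krt8 (ENSMUSG00000049382.10, chr15:101996698-102004482, minus strand) is not a regulator but a keratin of simple epithelia and an early protein of the trophectoderm. It had 1 peak, at chr15:102007461-102007836, 376 bp wide and 3166 bp upstream, in an intron of the gene model Gm36026. The peak lay between Krt8 and Krt18, the gene of its partner keratin, whose TSS is 23.7 kb from that of Krt8, and it was also the closest peak of Krt18, at 20.5 kb.

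**Figure D2:**
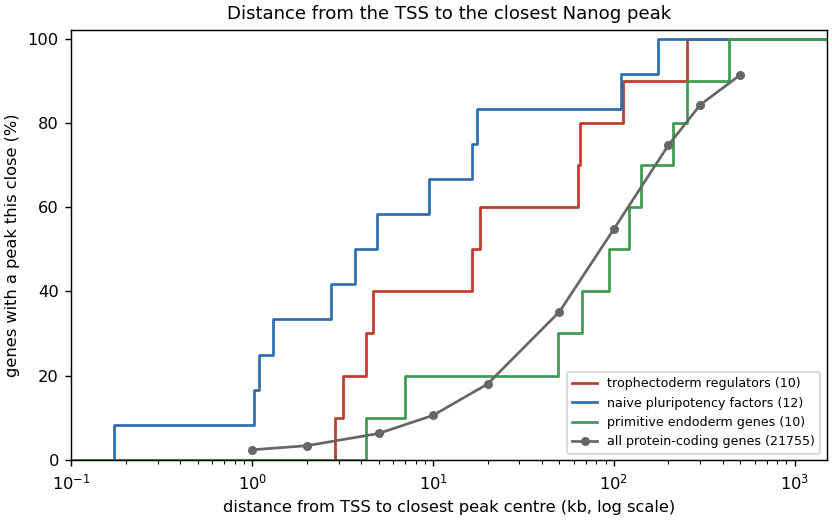
The horizontal axis is the distance from a TSS to its closest peak centre in kb on a log scale, and the vertical axis is the cumulative percent of genes with a peak that close, as steps for the 10 trophectoderm regulators, 12 naive pluripotency factors and 10 primitive endoderm genes and as points for 21755 protein-coding genes. The red steps reach 40% before 5 kb, where all genes are at 6.25%, and lie to the right of the pluripotency factors up to 100 kb.

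Over the 10 genes the median distance to the closest peak was 17.3 kb, with quartiles of 4.36 and 64.8 kb, against a median of 85.3 kb over all protein-coding genes, with quartiles of 30.7 and 202.6 kb. By distance, 4 peaks lay within 5 kb, 4 from 5 to 20 kb, 4 from 20 to 50 kb and 6 from 50 to 100 kb. Relative to the mean over all protein-coding genes, the mean number per gene was 6.0 times as high in the first class, 2.63 times in the second, 1.34 times from 20 to 50 kb and 1.24 times from 50 to 100 kb. Of the 4 peaks from 20 to 50 kb, 3 were of Tfap2c. No peak came within 2 kb of any of the 10 start sites, where 3.35% of protein-coding genes had one, so the peaks of the first class all lay between 2 and 5 kb. Upstream and downstream peaks numbered 7 and 11.

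A single gene accounted for a large part of the counts. Without Tfap2c, 13 peaks within 100 kb remained for 9 genes, a mean of 1.44. The 10 genes were the nearest protein-coding gene of 20 peaks, 15 within 100 kb and 5 beyond, and without Tfap2c of 11. Genes that were nearest to at least 1 peak numbered 6 of 10, namely Cdx2, Tfap2a, Tfap2c, Tead4, Ets2 and Krt8, against 24.6% of protein-coding genes. A gene with more of the genome nearest to it has more room for peaks, and the median stretch was 97.3 kb for the 10 genes. Per Mb of such stretch, they had 16.7 nearest peaks, against 3.46 over all protein-coding genes, and 11.4 without Tfap2c. Of the 18 peaks, a different protein-coding gene was nearer to 3, those of Elf5 and Gata2, and when noncoding genes, pseudogenes and gene models of uncertain type were counted as well, the regulator stayed the nearest gene for 5.

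The 18 peaks were close to the other peaks of the list in form. Their median width was 302 bp (range 235 to 469), against 319 bp over 8735 peaks. Median GC content of the central 200 bp was 50.5% (range 39.5 to 61.5), against 47.5% over all peaks and 44.5% in windows of the same length 1 kb beyond the peak edges. Centres were intergenic for 10 (55.6%, exact 95% interval 30.8 to 78.5), against 46.3% of all peaks, intronic for 7 and in a noncoding exon for 1, and none was in a coding exon or an untranslated region. Within chains of at least 2 peaks lay 8 (44.4%, interval 21.5 to 69.2), against 24.1% of all peaks, which is just inside the interval. Such intervals hold counting error alone, and peaks that neighbour each other in a chain are not independent.

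**Figure D3:**
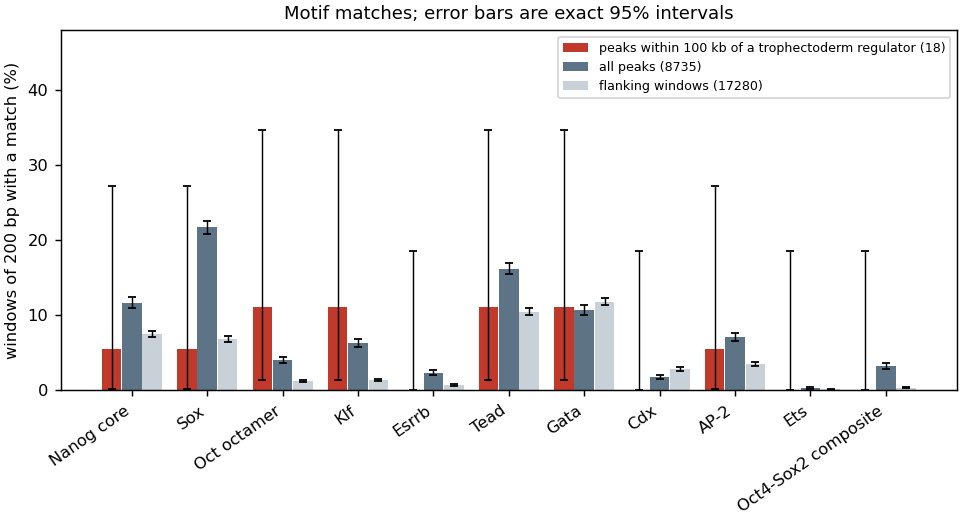
Bars give the percent of windows of 200 bp holding each motif, for the 18 peaks within 100 kb of the trophectoderm regulators (red), for all 8735 peaks (dark) and for 17280 windows 1 kb outside the peaks (light), with exact 95% intervals as error bars. The Sox motif is in 21.7% of all peaks and in 1 of the 18, and the intervals of the 18 are wide for every motif.

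Motifs of the pluripotency factors came first among the sequence features compared. At least 1 of the 6 motifs for Nanog, Sox, Oct, the composite, Klf and Esrrb was present in 6 of 18 (33.3%, interval 13.3 to 59.0), against 41.2% of all peaks and 17.0% of flanking windows. The octamer and the Klf motif were each in 2 of 18 (11.1%, interval 1.38 to 34.7), against 4.04% and 6.30% of all peaks. The Nanog core was in 1 (5.56%, against 11.7%), and the Esrrb motif and the composite were in none, which allows a share of up to 18.5% by the same interval, against 2.36% and 3.25%. None of these shares was separated from that of all peaks by its interval.

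The Sox motif was the motif whose share differed most in percentage points from that of all peaks. It was in 1 of 18 (5.56%, interval 0.141 to 27.3), against 21.7% of all peaks and 6.88% of flanking windows, and in 2 of 18 when whole intervals were searched. A shorter core of 6 bases, CATTGT or CTTTGT, chosen after these values were seen, was in 2 of 18 (11.1%, interval 1.38 to 34.7), the proximal peak of Cdx2 and the Tfap2c peak at 32706 bp upstream, against 47.7% of all peaks and 26.6% of flanking windows. Here the interval lay below the share of all peaks but not below that of the flanking windows. It was not adjusted for the 11 motifs looked at before it.

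Motifs of the families to which the regulators themselves belong were searched in the same windows. At least 1 of the Tead, Gata, Cdx, AP-2 and Ets motifs was in 5 of 18 (27.8%, interval 9.69 to 53.5), against 32.0% of all peaks and 26.2% of flanking windows. Tead matches were in 2 (11.1%), in the peaks of Gata2 and Tead4, against 16.2% of all peaks and 10.5% of flanking windows. Gata matches were in 2, both of Tfap2c, against 10.7% of all peaks and 11.8% of flanking windows. An AP-2 match was in 1, of Cdx2, against 7.07% and 3.55%. Cdx and Ets motifs were in none, against 1.74% and 0.355% of all peaks and 2.87% and 0.139% of flanking windows. None of the 11 motifs was found in 8 of the 18 windows (44.4%, interval 21.5 to 69.2), against 39.6% of all peaks and 61.5% of flanking windows.

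**Figure D4:**
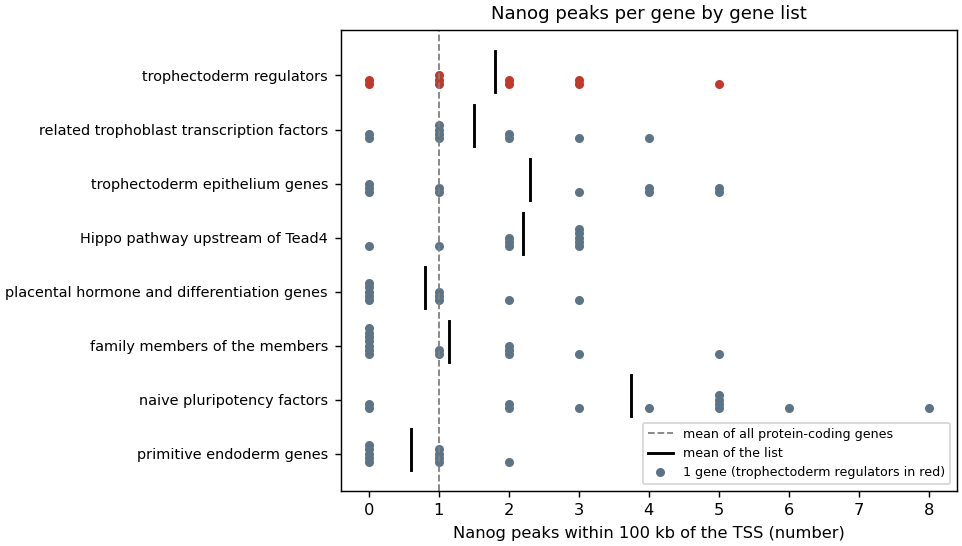
Each dot is 1 gene, the horizontal axis is its number of Nanog peaks within 100 kb of the TSS, each row is a gene list, solid bars are list means and the dashed line is the mean of all protein-coding genes, 1.00. The trophectoderm regulators (red) average 1.8, the naive pluripotency factors 3.75 and the primitive endoderm genes 0.6.

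Paralogs from the AP-2, Tead, Cdx, Gata, Hand and Ets families were set beside their trophectoderm members, with none listed for Elf5 or Krt8. Among the AP-2 genes, Tfap2c had 5 peaks within 100 kb and Tfap2a 3, while Tfap2b, Tfap2d and Tfap2e had none, with closest peaks at 1277, 1171 and 132.7 kb. Among the Tead genes, Tead4 and Tead1 had 3 each, Tead2 had 2 and Tead3 none. Only Tead4 of these had a peak within 5 kb, the closest of Tead1 being at 9.39 kb. Cdx2 and the X-linked Cdx4 had 2 each and Cdx1 none. Of the Gata genes, the erythroid factor Gata1 had 5, none of which was nearest to it, Gata2, Gata4 and Gata5 had 1 each, and Gata3 and Gata6 none. Hand2 had 2 where Hand1 had none, and Ets1 none where Ets2 had 1. Of all 14 paralogs listed, 7 had a peak within 100 kb, against 54.8% of all protein-coding genes. Their mean was 1.14 per gene, against 1.00, and 0 had one within 5 kb, against 6.25%.

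Other genes of the trophectoderm gave a range of counts, read beside the 54.8% of all protein-coding genes with a peak within 100 kb. Of 10 related trophoblast transcription factors, 8 had a peak within 100 kb, a mean of 1.5, with Klf5 having the most (4) and Gcm1, the regulator of labyrinth syncytiotrophoblast, the closest (1.25 kb). Of 10 genes of the trophectoderm epithelium, such as keratins, cadherins and junction proteins, 7 had one, a mean of 2.3, with the closest at Cdh3 (3.02 kb). Fgfr2, the receptor for the growth factor that sustains trophoblast stem cells, and Cdh1 had 5 each. Fgfr2 was nearest to 2 peaks and Cdh1 to 3. A peak within 100 kb of 2 genes of a list was counted for each of them, whereas the 18 peaks of the trophectoderm set were all distinct. Of 10 Hippo pathway genes upstream of Tead4, 9 had one, a mean of 2.2, with no gene above 3 (Yap1 among them) and the closest at Amotl2 (1.14 kb). These 3 lists had 1 gene each within 5 kb, where the 10 genes of the trophectoderm set had 4, the keratin gene Krt8 among them. That limit was chosen after the values were seen, so the contrast is a description. Just beyond it in the 3 lists lay Stk4 (5.26 kb), Cdh1 (5.93 kb), Sox21 (6.60 kb) and Fgfr2 (8.27 kb). The trophectoderm set still had 4 genes at 10 kb. Of 10 placental hormone and late differentiation genes, 5 had a peak within 100 kb, near the share of all genes, with a mean of 0.8. Psg17 had the most (3, none nearest to it) and Peg10 the closest (8.34 kb), and no gene of the list had one within 5 kb.

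The pluripotency factors and the primitive endoderm genes served as lists for the other lineages of the blastocyst. They are read beside the 54.8% of all protein-coding genes with a peak within 100 kb and their mean of 1.00. Of 12 naive pluripotency factors, 10 had a peak within 100 kb, a mean of 3.75, and 7 had one within 5 kb, the closest at Zfp42 (0.172 kb). Nanog itself had 8 within 100 kb but was the nearest protein-coding gene of only 1 peak. The median closest distance of the 12 factors was 4.27 kb, shorter than the 17.3 kb of the trophectoderm regulators. Of 10 primitive endoderm genes, 5 had a peak within 100 kb, near the share of all genes, with a mean of 0.6. Sox17 had the most (2, neither nearest to it) and Hnf4a the closest (4.25 kb), and the median closest distance was 107.4 kb. Nearest peaks per Mb of stretch were 11.5 for the pluripotency factors and 2.83 for the primitive endoderm genes. The trophectoderm regulators had 16.7, and 11.4 without Tfap2c. The summed stretch was 4.16 Mb for the pluripotency factors and 1.20 Mb for the regulators. By the same measure, the trophectoderm epithelium genes had 14.5, the related trophoblast factors 9.62 and the Hippo pathway genes 7.18. The paralogs had 1.86 and the placental genes 1.29. The lists were picked by name, share some genes (Esrrb, Gata4 and Gata6 are each in 2) and were not tested against each other.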

How the data were processed

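Nanog-bound and input chromatin of Bruce-4 ESCs was sequenced by the authors, who inspected reads with FastQC, aligned them to mm10 with Bowtie2, removed low-quality, duplicate, mitochondrial and blacklisted reads with BEDtools and SAMtools, and called peaks with MACS2. The threshold and the use of the input as control were not given in the sources used here. The study states an approximate read number, but the reads behind a peak cannot be computed from the deposited list. The deposited values are peak positions in base pairs, with no score. The input was not analysed here. Of 8860 lines, 123 repeated an interval and were counted once, and 2 peaks on scaffolds were left out.

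The TSS was the 5′ end of a gene in GENCODE vM21 and distance ran from the middle base of a peak, with the nearest gene at most 1000 kb away. Sequence came from the RefSeq GRCm38.p6 assembly. The sequence of the closest peak of Tfap2c is not reported here. Intervals are exact Clopper-Pearson at 95% and cover counting error only. Analyses used Python 3.11.15, numpy 2.4.6, scipy 1.17.1 and pysam 0.24.0 and were tested on simulated data. Every regulator was named with its values, as were nearer genes and, in each list, the genes with the most and the closest peaks; Cdh1 and the paralogs were added because they tie or complete a family. Like the genes, the lists were chosen with earlier results of these data known. Alternatives tried were distance from the peak edge, every transcript's TSS, all lines, merging within 300 bp, wider peaks, limits of 50 and 250 kb, all annotated genes, whole-interval motif windows, peaks nearest to a regulator, and 3 mismatches.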

Additional observations from a re-analysis of the deposited data

How the results depend on the processing

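Of 64 alternative values, 56 stayed within the limits set for them and 8 moved. All are counts, shares or distances, which have no sign that could reverse. The limits were wide: 12 peaks at the limit of 50 kb, in place of 18, counted as staying within them. Keeping only peaks at or above the median width of 319 bp lowered the peaks within 100 kb of a regulator from 18 to 8. The share of protein-coding genes with such a peak fell from 54.8% to 34.8%, and 6 of the 10 genes kept one. Peaks nearest to a regulator fell from 20 to 9, and the median closest distance rose from 17.3 to 69.1 kb. The median over all protein-coding genes under this filter is not given here, and the 85.3 kb above belongs to the unfiltered list. A limit of 50 kb gave a share of 35.2%, with 6 of the 10 genes. A limit of 250 kb gave a share of 80.4%, with 9 of the 10 genes. The peaks within 250 kb numbered 41, for which no mean over all protein-coding genes is given here. Counting every annotated gene as a possible nearest gene left 3 regulators nearest to 5 peaks, in place of 6 and 20. Each of these settings uses fewer peaks, another distance or more genes, and the reason for each move was not tested. Searching whole peak intervals in place of 200 bp raised the share of the 18 peaks with a Sox, Nanog core or AP-2 match from 5.56% to 11.1% each, Gata from 11.1% to 16.7% and Esrrb from 0 to 5.56%. The Sox core of 6 bases, counted among the 64, was chosen after seeing the data. No paired analysis was possible because the input gave no peaks to pair with those of the immunoprecipitated library. Without replicates, peak heights or read counts per peak, weak binding near Gata3 and Hand1 cannot be told from none.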
